A study of Mus musculus with 16 samples.

Results

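The genes that write N6-methyladenosine (m6A) also make messenger RNAs that can carry the mark. The m6A peaks on the mRNAs of 10 such genes were examined in mouse liver, by taking every peak whose gene name was Mettl3, Mettl14, Wtap, Virma, Zc3h13, Cbll1, Rbm15, Rbm15b, Mettl16 or Pcif1. The peaks came from MeRIP-seq, in which an antibody against m6A enriches methylated RNA fragments before sequencing and immunoprecipitated RNA is set against input RNA. The livers came from male C57BL/6J mice aged 10 to 11 weeks that received a normal diet (ND, n = 4) or a high-fructose diet (HFrD, n = 4) for 2 weeks, and 1 peak list was deposited for each of the 8 mice. Carbohydrate made up 70% of the kcal of the HFrD, fat 10% and protein 20%, whereas the labels give no composition for the ND. ND mice carried the numbers 1, 3, 6 and 7 and HFrD mice the numbers 1, 2, 5 and 7. Of the 10 genes, 8 had a peak in at least 1 mouse, out of 7693 genes in all lists, and they held 122 of 77183 peaks. Virma was listed under its older symbol 1110037F02Rik.

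METTL3 is the catalytic subunit of the main m6A writer, and METTL14 is its partner that helps to bind RNA. An adaptor complex of WTAP, VIRMA, ZC3H13 and CBLL1 holds the enzyme in the nucleus and guides it, while RBM15 and RBM15B bind RNA and bring the complex to its targets. METTL16 and PCIF1 are separate enzymes: METTL16 methylates a small nuclear RNA and hairpins of the Mat2a mRNA, and PCIF1 methylates the adenosine next to the cap. The main writer prefers the sequence GGACT, with the central adenosine methylated. In liver, m6A has been linked to the handling of lipids and glucose.

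Peaks on writer mRNAs lay on the adaptor and recruitment subunits, and the catalytic genes had almost none. Wtap, Virma, Zc3h13, Cbll1, Rbm15 and Rbm15b had a peak in all 8 mice. Mettl3 and Mettl16 had none in any mouse. Mettl14 had a single peak in HFrD mouse 5, and Pcif1 had 2 peaks in ND mouse 1. Each mouse thus had 6 or 7 writer mRNAs with a peak. Merging the overlapping peaks of all mice gave 24 writer regions, of which 10 were found in all 8 mice (41.7%, against 24.9% of all 17526 regions) and 6 in 1 mouse (25%, against 24.4%). Zc3h13 alone supplied 9 of the 24 regions and 6 of the 10 found in all 8 mice, so the higher share rests largely on this gene. Of the 24 regions, 17 coincided with 1 exon of the transcript from end to end, since the deposited intervals follow exon borders. The length of a region is therefore mostly that of its exon.

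**Figure D1:**
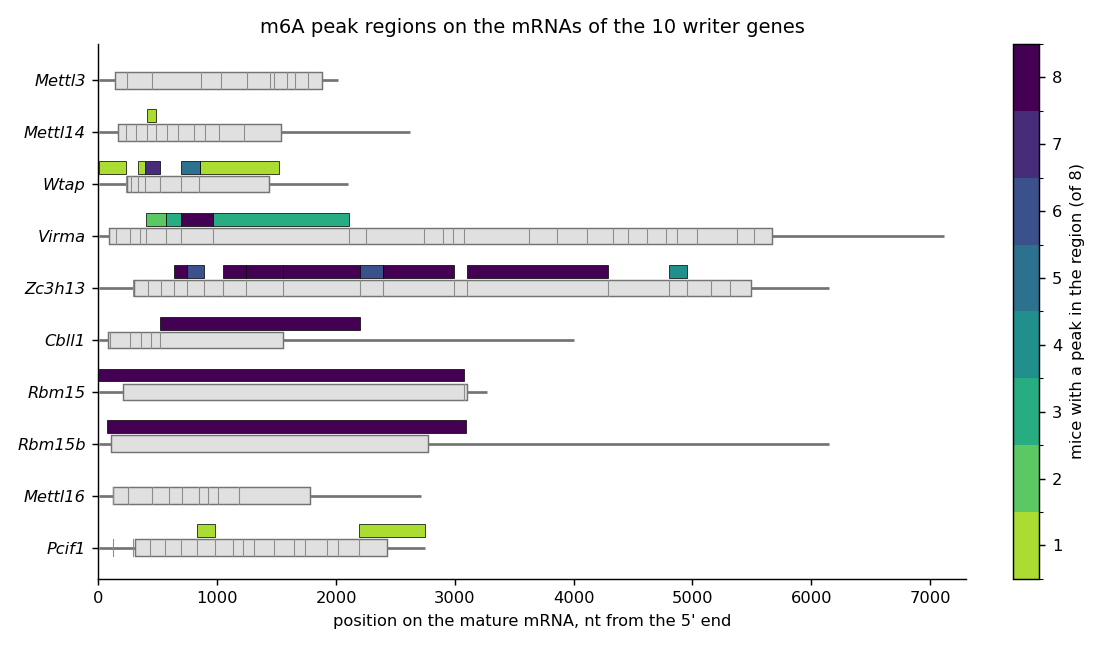
m6A peak regions above the mature mRNA of each writer gene, in nt from the 5' end. Grey boxes are coding sequence with exon borders as ticks, grey lines are untranslated regions, and region colour gives the number of mice (of 8) with a peak. Bases outside the transcript model are not drawn. Of the 10 mRNAs, 6 carry regions found in at least 7 mice, and Mettl3 and Mettl16 carry none.

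Short stretches of mRNA sequence are shown for the regions found in all 8 mice, and for the most frequent Wtap region, to set the enriched exons beside the preferred motif. They are given as DNA letters of the transcript strand from the RefSeq genome GRCm38.p6 (mm10). Capitals mark the GGACT nearest to the middle of the region, or GGAC where the region held no GGACT with room on both sides. Where neither was present, the middle of the region is given in lower case. GGACT contains GGAC, so the counts of GGAC include it.
Zc3h13 exon 12, chr14:75327652-75327675, plus strand: atagggtcagGGACagagataggg
Zc3h13 exon 14, chr14:75330475-75330498, plus strand: accaaaaaaaGGACagaagaagaa
Zc3h13 exon 10, chr14:75323362-75323386, plus strand: gagacatgcgGGACTccagagagat
Zc3h13 exon 9, chr14:75321721-75321745, plus strand: tcctaccagaGGACTttaactccat
Zc3h13 exon 8, chr14:75316018-75316041, plus strand: gagatgggaaGGACagaggccggg
Zc3h13 exon 5, chr14:75305831-75305855, plus strand: aaaattgttaaggagagaactccag
Virma exon 7, chr4:11508031-11508055, plus strand: gcaagaagagggagaagatgatgaa
Rbm15 exon 1, chr3:107331180-107331204, minus strand: gaggtgatcgGGACTtgcccagcag
Rbm15b exon 1, chr9:106885319-106885343, minus strand: ttttggaaggGGACTggaccagcct
Cbll1 exon 6, chr12:31487529-31487552, minus strand: tcctcctccaGGACcccctccacc
Wtap exon 5, chr17:12980873-12980897, minus strand: gcaggagtctgcacgcagggagaac

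Of the 10 regions found in all 8 mice, 4 held GGACT on the transcript strand and 8 held GGAC. Only these 2 sequences were searched. The wider motif that the authors looked for, RRACH (R a purine, H not G), was not counted here. A region without GGAC may therefore still hold an RRACH site. The most enriched regions were not those with GGACT. Virma exon 7 (273 bp) held neither motif on the transcript strand, whereas 24.6% of the 2083 regions within 20% of its length held GGACT and 73.4% held GGAC. On the other strand this exon held 1 GGAC and no GGACT, against 62.8% and 22.9% of those regions. Zc3h13 exon 12 held 3 GGAC and no GGACT, and exon 14 held 2 GGAC and no GGACT, while GGACT was present in 51.8% and 73.9% of regions of like length, and GGAC in 92.5% and 98.5%. The Rbm15 region held 25 GGAC on the transcript strand and 9 on the other, and the Rbm15b region held 25 and 4. Zc3h13 exon 10 had the opposite balance, with 3 and 12, and 15 of the 24 writer regions held GGAC on each strand. Nearly every region as long as those of Rbm15 and Rbm15b held GGAC (100% and 99.8%). Over all 24 writer regions, 7 held GGACT on the transcript strand and 8 on the other strand, with 0.898 GGACT per 1000 bp on each. Over all regions with a known strand the densities were 1.16 and 1.04 per 1000 bp. The mRNAs without peaks held the letters too, with 4 GGACT in Mettl3 and 2 in Mettl16.

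Mettl3, the gene of the catalytic subunit, lies on chromosome 14 from 52294841 to 52305124 (mm10, minus strand), and no list held a peak on its 11 exons, the longest of which has 405 nt. Mettl14 lies on chromosome 3 from 123368295 to 123385990 (minus strand). Its only peak, in HFrD mouse 5, was the 81 bp of coding exon 4, with a fold enrichment of 5.72 and a score of 72.3. The score is -10 times log10 of the peak caller's p-value and is at least 50 in every list. By score, this peak ranked above 17% of the peaks of its list. The last exon of Mettl14, with 1396 nt its longest, had no peak. A list without a peak does not tell an unmethylated mRNA from one too scarce or too thinly sequenced for a peak to be called. Reads and input expression were not analysed here, so these cannot be told apart, and in bulk liver neither can fewer cells of a type and less RNA per cell.

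Zc3h13, which anchors the writer in the nucleus, held 64 of the 122 peaks (52.5%). Peaks fell on 9 of its 19 exons, 6 of them in all 8 mice, between 75305789 and 75336074 of chromosome 14. The ND mice 1, 3, 6 and 7 had 9, 7, 8 and 8 Zc3h13 peaks, and the HFrD mice 1, 2, 5 and 7 had 7, 9, 8 and 8. The same counts thus occurred on both diets. The median of 8 peaks was above that of 99.1% of genes with a peak. Because the deposited intervals follow exon borders, such counts also depend on the number of exons. Exons 8 to 12 adjoin on the mRNA and were counted as separate peaks. Exon 12 (75327544 to 75328144, 601 bp) had fold enrichments of 53.8, 57.0, 94.3 and 74.5 in ND mice and 58.2, 64.0, 84.3 and 56.8 in HFrD mice. Exon 14 (75330069 to 75331259, 1191 bp), the longest of the gene, ranged from 55.5 to 63.1 in ND and from 31.95 to 69.9 in HFrD mice. The other 7 regions stayed between 4.70 and 17.9, also exon 10 (75323224 to 75323874), whose 651 bp exceed those of exon 12. Exons 6 and 11 had a peak in 6 mice each and exon 16 in 4 mice, with equal numbers of ND and HFrD mice at all of them.

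**Figure D2:**
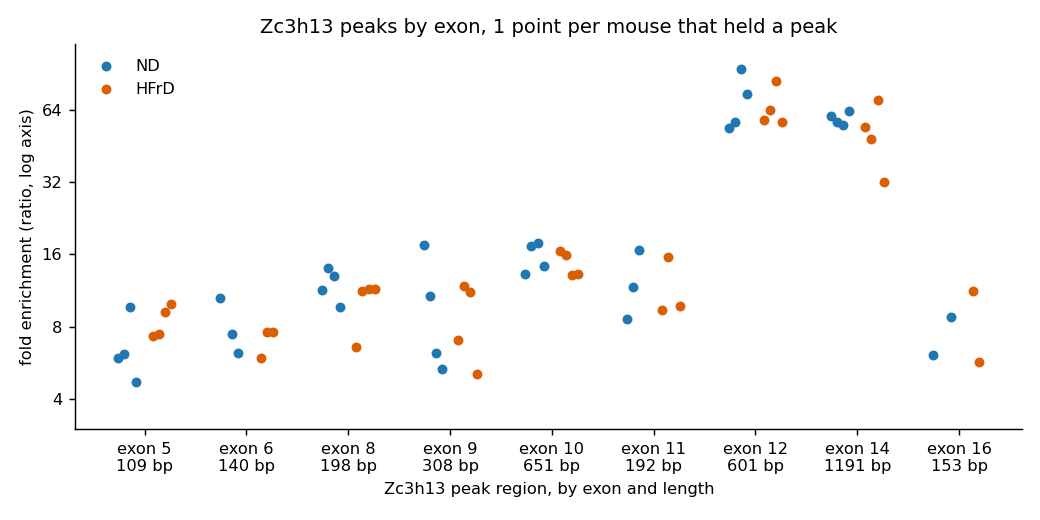
Fold enrichment (ratio, log axis) of Zc3h13 peaks in each mouse, by exon, with ND mice in blue and HFrD mice in orange. Exons 12 and 14 stand at 31.95 or more in every mouse, and the other exons at 17.9 or less.

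Virma, the scaffold of the adaptor complex, was enriched mainly at 1 exon. Exon 7 (chromosome 4, 11507907 to 11508179) had fold enrichments of 44.3, 19.7, 21.8 and 27.5 in ND mice 1, 3, 6 and 7 and of 35.1, 47.4, 52.7 and 31.9 in HFrD mice 1, 2, 5 and 7. Of the 4 ND mice, 3 lay below all HFrD mice, and ND mouse 1 lay above HFrD mice 1 and 7, so the groups overlapped. The neighbouring exons 5, 6 and 8 had peaks in 2, 3 and 3 mice, with fold enrichments from 3.37 to 6.91. The last exon, with 1599 nt the longest of Virma, had no peak. Peaks per mouse numbered 1, 3, 1 and 3 in ND and 1, 3, 3 and 1 in HFrD livers.

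Rbm15 and Rbm15b, the RNA-binding recruiters, each had 1 long peak in every mouse. The Rbm15 region (chromosome 3, 107329820 to 107333289, minus strand) covered the first of 2 exons, which holds nearly all of the coding sequence. A further 395 bp of this region lay outside the transcript model. Its fold enrichment was 10.9, 12.6, 13.6 and 16.5 in ND and 11.4, 10.7, 13.01 and 11.4 in HFrD mice. Rbm15b is a gene of 1 exon, and its region (chromosome 9, 106883985 to 106887000, minus strand) covered 2664 coding bases, 33 bases of the 5'UTR and 319 of the 3'UTR. Its fold enrichment was 10.7, 16.9, 18.7 and 11.2 in ND and 9.57, 8.54, 12.1 and 8.83 in HFrD mice. The highest HFrD mouse lay above 2 ND mice, and the other HFrD mice lay below all ND mice. A model of Manf overlaps the Rbm15b locus on the same strand, and reads of the 2 genes could be shared.

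Cbll1, which encodes the ubiquitin ligase HAKAI, had 1 peak in every mouse on its last exon (chromosome 12, 31486632 to 31488314, minus strand), across the stop codon. The region held 1036 coding bases and 647 bases of the 3'UTR. Its fold enrichment was 10.7, 6.78, 11.3 and 8.42 in ND and 7.75, 7.23, 7.77 and 8.20 in HFrD mice, all of them within the ND range. An antisense gene, Gm29542, overlaps this exon on the plus strand, and the peak lists give no strand, so its share of the signal cannot be told apart.

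Wtap, which brings the enzyme to nuclear speckles, had the most scattered peaks of the 6 genes. It had 5 regions on chromosome 17 (minus strand) and none in all 8 mice. Exon 5 (12980822 to 12980949, 128 bp) had a peak in 7 mice, at 7.39, 7.81, 7.93 and 6.45 in ND mice and at 4.45, 9.13 and 5.29 in HFrD mice 1, 2 and 5. HFrD mouse 7 had none there. Exon 7 (12969405 to 12969559) had a peak in 2 ND and 3 HFrD mice, at 3.76 to 5.66. A further 3 regions were found in 1 ND mouse each, at scores of 70.2 or less. Wtap peaks numbered 1, 1, 3 and 4 in ND and 2, 2, 1 and 1 in HFrD mice.

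Pcif1 had its 2 peaks in ND mouse 1 alone, at exon 7 and at the last exon on chromosome 2, with fold enrichments of 4.33 and 6.76 and scores of 62.6 and 70.6. Mettl16 (chromosome 11, 74770863 to 74818692, plus strand) had none, including its last exon of 1534 nt. The peaks found in a single mouse thus stood near the lowest scores of the lists. By score, the top peaks of the 6 genes found in every mouse spanned middle to high ranks. Within a list, the median rank of the highest-scoring peak was above 98.1% of peaks for Zc3h13, 94.9% for Rbm15 and 92.8% for Virma. It was above 80.2% for Rbm15b, 56.0% for Cbll1 and 41.5% for Wtap. These ranks follow the score, not the fold enrichment.

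Nearly all writer peaks had their midpoint in coding sequence. Midpoints of 118 of the 122 peaks (96.7%) fell in coding sequence away from the start and stop codons, from 92.3% to 100% in single mice. Over all 70856 peaks with a transcript model the share was 48.7%, from 47.3% to 49.8%. By midpoint, the start codon segment (200 nt on either side) held 2 writer peaks and the stop codon segment 2. The shares of all peaks were 25.6% and 12.8%. Midpoints do not show which codons a long peak covers. The Rbm15 region held 209 bases of the 5'UTR, the Cbll1 region 647 bases of the 3'UTR, and the Rbm15b region bases of both. Zc3h13 supplied most of the writer peaks, but without it 54 of 58 (93.1%) still had their midpoint in coding sequence. These shares describe few genes and were not tested. Coding shares (mean ± SD, n = 4) were 95.4% ± 3.11 in ND and 98.1% ± 3.85 in HFrD livers.

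The diets were then compared to ask whether a high-fructose diet changes the m6A peaks of its writers. No writer gene and no writer region passed a test of the diets. Writer peaks numbered 16, 14, 15 and 18 in ND mice 1, 3, 6 and 7 and 13, 17, 16 and 13 in HFrD mice 1, 2, 5 and 7, and these ranges overlapped. The means were 15.8 ± 1.71 and 14.8 ± 2.06 peaks (SD, n = 4 each), or 0.156% and 0.161% of each list. The lists themselves held 8959 to 11517 peaks in ND and 8055 to 10093 in HFrD mice, so writer peaks made up similar shares of lists of different length.

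**Figure D3:**
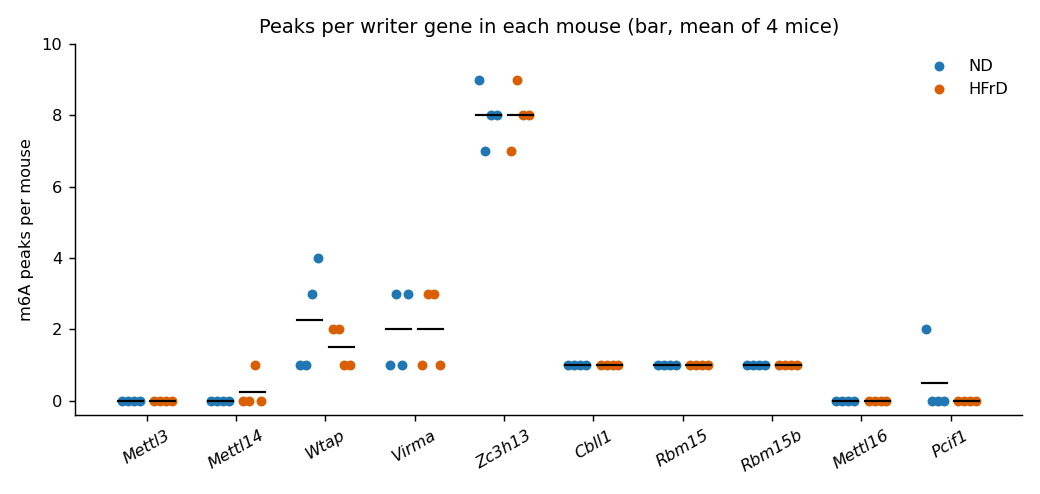
m6A peaks per mouse on each writer mRNA, with 4 ND mice in blue, 4 HFrD mice in orange and the mean as a black bar. Zc3h13 has 7 to 9 peaks in every mouse, Cbll1, Rbm15 and Rbm15b 1 in every mouse, and no gene separates the diets.

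None of the 10 genes had a peak in all mice of one diet and in none of the other, a pattern found for 1.41% of the 2839 genes tested for presence. All writers were outside that test, because it needs a gene in 2 to 6 mice. For peaks per gene, 0 writers had groups that did not overlap, against 0.956% of 6796 genes. That comparison took genes whose counts varied among mice, which among the writers were Wtap, Virma, Zc3h13, Mettl14 and Pcif1. Mettl14 and Pcif1 had peaks in 1 mouse each, so their groups could not separate. Among the writers Wtap had the largest difference, with a mean of 2.25 peaks and an SD of 1.5 in ND and of 1.5 and 0.577 in HFrD mice (n = 4 each), a difference with p = 0.543 by exact two-sided permutation (adjusted p = 1.0). Its difference of -0.75 peaks became -0.25 with lists of equal length and -1.0 with scores of at least 100. It ran from -1.17 to -0.17 with 1 mouse left out. For the summed length of peaks, 0 writers had groups that did not overlap, against 2.27% of 7357 genes. Mettl3 and Mettl16 had no peaks and were outside that comparison, and Mettl14 and Pcif1 again could not separate. Zc3h13 covered 3384 ± 122 bp on both diets, and Rbm15 covered 3176 ± 72.0 bp on the ND against 3144 ± 94.5 bp on the HFrD (SD, n = 4, p = 0.6 by exact permutation). With 4 mice against 4 the smallest p is 0.0286, so adjusted values could not pass and the separation of the groups served as the call.

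At single regions, 14 of the 24 were found in equal numbers of ND and HFrD mice and 10 differed by 1 mouse. The presence test applied to 7 writer regions, each with Fisher's exact p = 1.0, and 0 were called, against 1.08% of 7410 regions tested.

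For the strength of peaks, the highest fold enrichment of a gene was compared among genes listed in every mouse, after log2 values were centred on the median of each list. By limma with Benjamini-Hochberg adjustment, 0 of 3046 genes passed at 0.05 (0.0%), with a smallest adjusted p of 0.0788. At an unadjusted p under 0.05 there were 291 genes (9.55%), and Virma was 1 of the 6 writers tested. Its highest fold enrichment averaged 28.3 ± 11.2 in the 4 ND mice (SD) and 41.8 ± 9.87 in the 4 HFrD mice. The log2 difference was 0.71 (95% interval 0.16 to 1.26). Its unadjusted limma p over all genes was 0.0144 and its adjusted p was 0.435, which did not pass. Where the mean over all Virma peaks replaced the strongest, the difference was 0.29. That mean includes the weaker peaks of exons 5, 6 and 8 in the mice that had them. With 1 mouse left out, the difference of the strongest peak ran from 0.59 to 0.96. The unadjusted limma p then ran from 0.00079 without ND mouse 1 to 0.0499 without ND mouse 3. The adjusted p of Virma lay between 0.225 and 0.966 over the alternatives on the log2 scale.

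The other writers had smaller differences, with intervals that include 0 in the comparison of all 8 mice. Rbm15b differed by -0.42 on the log2 scale (95% interval -0.91 to 0.07, limma adjusted p = 0.576). Its unadjusted limma p was 0.086, and it was 0.0403 without centring (-0.53) and 0.0468 for the mean over peaks (-0.49). Rbm15b had 1 peak in every mouse, so the mean over peaks changed only its centring. Its limma adjusted p ran from 0.468 to 0.966 over the alternatives on the log2 scale. Wtap differed by -0.35 (-0.89 to 0.19, limma adjusted p = 0.691). Without HFrD mouse 2, its highest HFrD value, Wtap differed by -0.62 with an unadjusted limma p of 0.0114 and an adjusted p of 0.377, the lowest over the alternatives on the log2 scale (the highest was 0.850). Cbll1 differed by -0.13 (-0.58 to 0.32), Rbm15 by -0.08 (-0.49 to 0.32) and Zc3h13 by 0.00 (-0.45 to 0.44). Differences within these intervals are not excluded by the 4 mice on each diet. In 0 of the 6 genes were the groups without overlap, against 5.25% of the 3046 genes. Among the 10 writer regions in all 8 mice, the result at Virma exon 7 was 0.69 (95% interval 0.15 to 1.24, limma adjusted p = 0.448), and at Zc3h13 exon 5 it was 0.49 (-0.05 to 1.03, adjusted p = 0.557). The Zc3h13 value ran from 0.31 without ND mouse 7 to 0.69 without ND mouse 6, and no adjusted p passed. None of the 4360 regions passed (0.0%), while 9.36% had an unadjusted p under 0.05, among the writers Virma exon 7 alone.

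**Figure D4:**
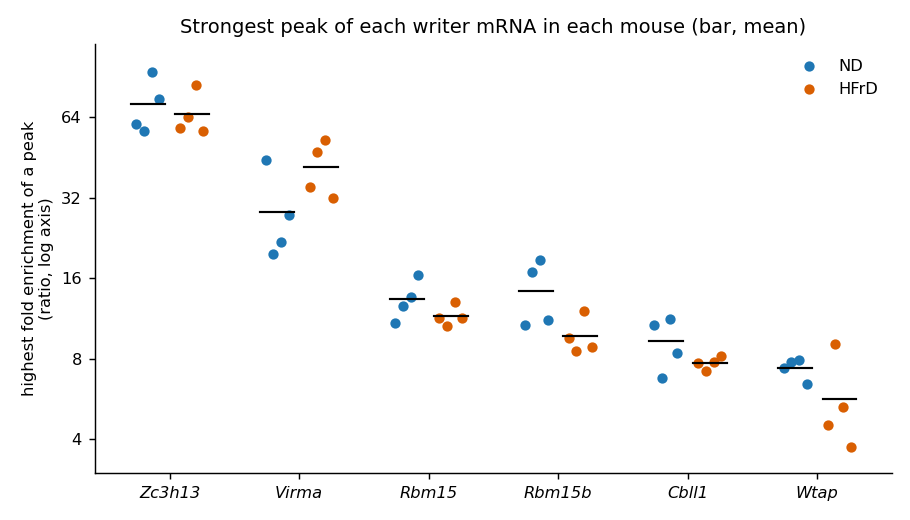
Highest fold enrichment (ratio, log axis) of a peak on 6 writer mRNAs in each mouse, with ND in blue, HFrD in orange and the mean as a black bar. The groups overlap for every gene, and ND mouse 1 is the Virma point at 44.3 among the HFrD values.

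**Figure D5:**
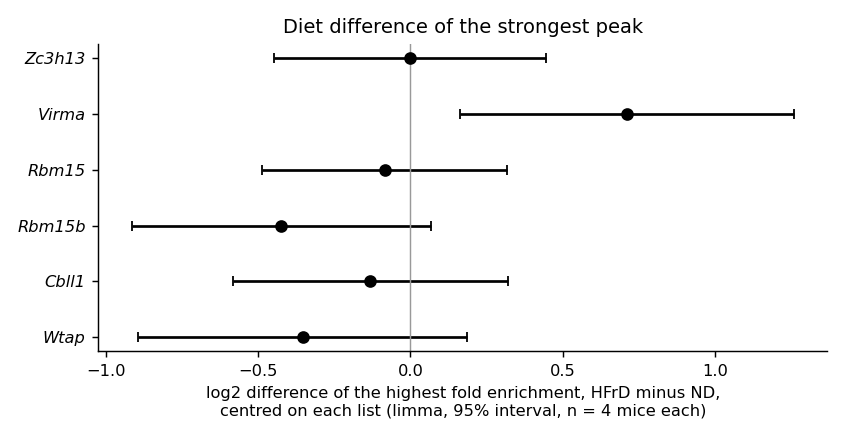
Log2 difference of the highest fold enrichment, HFrD minus ND, with 95% intervals from limma (n = 4 mice each, values centred on each list). The interval of Virma lies above 0 before correction for 3046 genes, and the other 5 intervals include 0.

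Other genes of the pathway were set beside the writers. Of 16 m6A erasers and readers, 12 had a peak in some mouse and 6 in all 8, and of 28 other RNA methyltransferases 15 had one and 3 had one in all 8. By comparison, 8 of 10 writers had a peak and 6 had one in all 8. Of all 7693 genes with a peak, 39.6% had one in all 8 mice. Of the 15 genes of the methyl donor cycle, which makes the methyl group that the writers transfer, 6 had a peak and 0 had one in all 8. Mat2a, the METTL16 target, had none in any mouse. None of the genes of these lists separated the diets, against 1.41% of genes tested.

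The evidence behind single peaks is limited. The deposited false discovery rate of writer peaks ran from 46.2% to 100%, with 119 of 122 at 50% or more, and it was at that level for 99.3% of all peaks. The median over all peaks was 88.8%. Yet the median fold enrichment was 10.6 for writer peaks and 7.76 for all peaks, and 15 writer peaks had scores of 3100 or more, where scores level off. Zc3h13 supplied 64 of the 122 writer peaks, so the writer median rests largely on this gene. Peaks do not measure expression, and of 10 hepatocyte markers 6 had a peak in some mouse, with none on Alb, Tf, Serpina1c and Cps1. Marker lists of other liver cells had peaks in 5 of 7 genes for Kupffer cells and macrophages, 4 of 5 for endothelium, 4 of 5 for stellate cells, 2 of 5 for cholangiocytes and 3 of 5 for lymphocytes and neutrophils. Among the Kupffer cell and macrophage markers, 3 genes had a peak in more ND mice and 2 in more HFrD mice. Of all the markers in these lists, 1 separated the diets, against 1.41% of the 2839 genes tested for presence. It was the macrophage receptor Marco, with a peak in 0 ND and 4 HFrD mice, named after its values were seen. The paper lists Marco among genes with higher mRNA in HFrD mice. The part of Marco in the writer results was not tested.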

How the data were processed

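MeRIP-seq libraries of 8 livers (8 immunoprecipitated, 8 input) were deposited with 1 peak list for each mouse. Per the submitters' processing notes and methods, the authors trimmed reads with cutadapt 1.9.3, aligned them to mm10 with HISAT2 2.0.4, called peaks with MACS in each mouse (version not given in the sources used here), and kept peaks on mRNA exons. The deposited score is -10 times log10 of a peak's p-value, the deposited fold enrichment is the ratio by which immunoprecipitated signal exceeded background, and the false discovery rate was deposited as a percent. Deposited starts are counted from 0 and 1 was added.

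Peaks were assigned by gene symbol. Older symbols were matched through RefSeq. Peaks of all mice that overlapped by 1 bp were merged into regions. Exons were taken from RefSeq GRCm38.p6, or from GENCODE for peaks of other genes listed with an Ensembl transcript. Each mouse was the unit. Presence was tested by Fisher's exact test, counts and lengths by exact permutation over 70 splits, and log2 fold enrichment by limma 3.58.1 in R 4.3.3, without a pseudocount. Adjustment was by Benjamini-Hochberg over all genes or regions. Python 3.11.15, numpy 2.4.6, pandas 2.3.3, scipy 1.17.1, pysam 0.24.0 and matplotlib 3.10.9 were used, and the tests were checked on simulated data. No 2 lists shared more than 2 identical peaks. Numbered samples of a diet were taken as separate mice, and p-values measure only the spread between these samples.

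The writer genes and the other lists were chosen with earlier results of these data known. Named were all 10 writers, per writer the region found in most mice, any region that differed by 2 or more mice between the diets, members of other lists that differed by at least 3 mice, and Mat2a. A gene that this rule took is not reported here. Alternatives were fold enrichment minima of 3, score minima of 100, lists cut to 8055 peaks, peaks joined within 100 bp, 50% coverage of a region, no centring, score percentiles, means over peaks, each mouse left out and a block of mice 1 and 7.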

Additional observations from a re-analysis of the deposited data

Results flagged for a closer look

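In 5 of 34 groups of 4 mice with varying values, 1 mouse stood apart from the other 3 by Dixon's criterion. In all 5 the other 3 mice had equal values, so any differing value would have met it, and the usual chance rate of about 1 in 20 groups does not apply. HFrD mouse 5 alone had a Mettl14 peak (1 peak of 81 bp). ND mouse 1 alone had Pcif1 peaks (2 peaks, 844 bp). ND mouse 1 also had a shorter Rbm15b peak of 2357 bp, against 3016 bp in each other ND mouse.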

How the results depend on the processing

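No writer gene or region passed its test under any alternative that kept all 8 mice or left out 1. Counts over all genes or regions moved mainly with the number of mice, as 3 against 4 mice separate more easily. Genes with presence in one diet alone numbered 40, and 62 to 84 without any 1 mouse. Genes whose peak counts did not overlap numbered 65 (101 to 165 without 1 mouse), those whose peak lengths did not overlap 167 (247 to 350), and regions present in one diet alone 80 (122 to 185). By limma, 0 genes and 0 regions passed, and 0 to 1 of each without 1 mouse. With score percentiles 1 gene passed and no writer. Of 245 values by gene or region whose difference was not 0, 228 kept their direction and 17 turned, all at Zc3h13. A further 38 values belong to differences of 0 in peaks or length of Virma and Zc3h13, of which 12 became positive and 17 negative. The gene value turned from 0.00 to 0.79 percentile points with score percentiles, and ran from -0.086 to 0.14 without 1 mouse. Exon 12 turned from 0.02 to -0.069 without centring and ran from -0.080 to 0.18 without 1 mouse. Exons 8 (-0.17), 9 (-0.01) and 10 (0.00) ran from -0.31 to 0.049, from -0.30 to 0.32 and from -0.081 to 0.097. The cause was not tested.

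Mice 1 and 7 share a number across the diets, but nothing says that they are pairs. Their deviations from the group means correlated by 0.04 and -0.06 across 3046 genes. With the replicate block, both pairs had to differ in the same direction. It called 461 of 3476 genes by presence, 1048 of 5468 by peaks, 2045 of 6371 by length and 1043 of 9380 regions. These are shares of the genes or regions whose values varied among its mice, and limma called 0 with it. In it Zc3h13 exon 10 turned to 0.26 on the log2 scale, and Virma fell to 0.10 from 0.71. Among the writers it called 1 gene by length, Rbm15, longer in both HFrD mice, and 1 region by presence, Zc3h13 exon 16, absent from HFrD mice 1 and 7 but held by HFrD mice 2 and 5.

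Read depth is unknown, and list length is the only measure of yield. With centring omitted, the median of all genes shifted to -0.10 on the log2 scale.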
